A study of Mus musculus with 6 samples.

Results

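The 9 genes described here encode receptors and signalling enzymes through which the sympathetic and parasympathetic nerves act on the heart: the adrenergic receptors Adrb1, Adra1a and Adra1b, the muscarinic receptor Chrm2, the adenylyl cyclases Adcy5 and Adcy6, the protein kinase A (PKA) subunits Prkaca and Prkar1a, and the phosphodiesterase Pde3a. They were taken by gene symbol from a table of 54532 mouse genes, and all 9 were found in it. The table holds RNA levels of 6 hearts labelled as day 4, from wild-type ICR mice, an outbred stock. In the control group (n = 3) the mothers were given citric acid into the peritoneum while pregnant, and in the STZ group (n = 3) they were given STZ, read here as streptozotocin, which destroys insulin-making beta cells and is used to raise blood glucose. The tissue is labelled heart, with no chamber, transgene or other treatment named. Nothing in the labels ties the hearts to litters, so the p-values measure only the spread between these samples, which may be technical. Levels are given in FPKM, the reads of a gene scaled by the gene's length and by a library total set by the authors.

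Noradrenaline from sympathetic nerves binds the beta1 receptor, which through the stimulatory G protein turns on adenylyl cyclase. The cyclic AMP that is made frees the catalytic subunit of PKA from its regulatory subunit, and PKA then phosphorylates calcium channels, phospholamban and sarcomere proteins, so that the heart beats faster and harder. Acetylcholine from the vagus binds the M2 receptor, whose inhibitory G protein lowers cyclase activity and opens potassium channels of the atria and nodes. Alpha1 receptors act through another G protein on phospholipase C, and phosphodiesterases break cyclic AMP down again.

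Because PKA phosphorylates the factor CREB, which binds the cyclic AMP response element (CRE), promoters of the genes were searched for its full palindrome TGACGTCA and its shorter core TGACG, on both strands; the core is part of the full element. RefSeq start-site windows (GRCm38.p6, from 250 bases before to 50 after a start) were held for 6 of the 9 genes, 13 windows in all. The full element was present in 2 of the 13 windows, both of Prkar1a, and in 1.79% of all 32851 windows of this length. The core was found in 5 of the 13 windows, of Adrb1, Prkaca and Prkar1a, and in 20.8% of all windows. Prkar1a had 6 of the 13 windows, Prkaca 2 and Adrb1 1, so the genes did not have equal chances of a match. The stretches of 30 bases that hold these matches are shown to compare their surroundings, 5′ to 3′ on the plus strand, which is the coding strand of these genes, with the match in capitals.
Prkar1a, full element, chr11:109650882-109650911: ggccagagcgaggcgcatTGACGTCAgcag
Prkar1a, core, chr11:109650749-109650778: ggttctagctagaTGACGacgggctaaggg
Prkar1a, core, chr11:109649199-109649228: gtttgcttttattCGTCAgtgttaatacag
Prkaca, core, chr8:83972845-83972874: agtctgcaactcgCGTCActcatccaggag
Prkaca, core, chr8:83972959-83972988: tgggctgcgggggCGTCAcggacagaggac
Adrb1, core, chr19:56722014-56722043: ggctgcgggagccTGACGcgcggccccggg
A match describes letters in a window and is not a binding site.

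Control 2 stood apart from the other libraries in its markers. The summed level of 9 atrial cardiomyocyte markers was 6350.1 FPKM in control 2 and 54.2 to 136 FPKM in the other 5 libraries, and all 9 were highest there. All 10 cardiomyocyte markers were lowest in control 2, at a sum of 8514 FPKM against 15689.9 to 18848 FPKM elsewhere. The 10 fibroblast markers summed to 939, 1814 and 1074 FPKM in controls 1 to 3 and to 840.3, 898 and 909 FPKM in STZ 1 to 3, so that every STZ library lay below every control, the 10 autonomic neuron and glia markers to 49.4 against 3.31 to 4.60 FPKM, and the 6 brown adipocyte markers to 313 against 19.1 to 25.1 FPKM. Ucp1 and Adipoq, which define brown fat and adipocytes, were at 213 and 20.4 FPKM in control 2 and at 0 in the other 5. The part of these marker differences in the results was not tested. The group differences of the 9 genes and the medians of the gene lists are given with and without control 2. In whole tissue, fewer cells of a type and less RNA per cell cannot be told apart. The values correspond to 16707268 to 18082599 reads per library.

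Prkar1a and Prkaca were far above the others in level per length, and Adra1a was near the limit of detection. Mean levels over the 6 libraries were 198 FPKM for Prkar1a, 179 for Prkaca, 38.7 for Adcy6, 28.9 for Adcy5, 17.7 for Adrb1, 14.9 for Chrm2, 14.3 for Adra1b, 11.3 for Pde3a and 0.138 for Adra1a. Prkar1a ranked number 174 and Prkaca number 194 among the 12431 genes tested, while Adrb1 exceeded 80.1% and Pde3a 68.7% of them. Several neighbours in this order did not differ beyond the spread: Prkar1a was above Prkaca in 5 of 6 libraries, Adrb1 above Chrm2 in 5 of 6 and Chrm2 above Adra1b in 3 of 6. Adcy6 was above Adcy5 in 6 of 6 libraries, by 1.19-fold to 1.64-fold, and Prkaca was 3.74-fold to 5.01-fold above Adcy6.

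**Figure D1:**
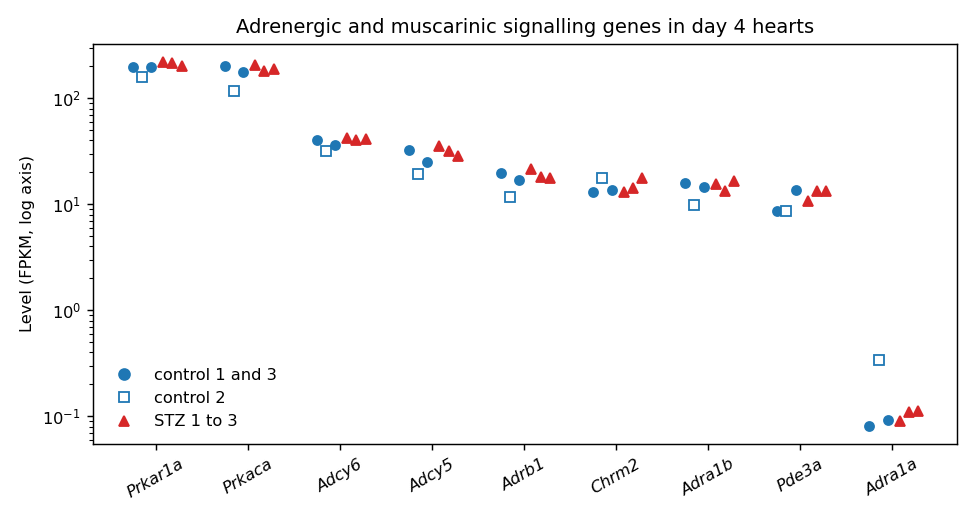
Level of the 9 genes (FPKM, log axis) in each of the 6 libraries, ordered by mean, with control 1 and 3 as filled circles, control 2 as an open square and STZ libraries as triangles. Control 2 is the lowest library for 6 genes and the highest for Chrm2 and Adra1a, and Adra1a lies below 0.35 FPKM in every library.

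For the group comparison, log2(FPKM + 1) values were fitted with limma, for every gene that reached 1 FPKM in 3 libraries. That filter kept 8 of the 9 genes and left out Adra1a. None of the 8 passed a Benjamini-Hochberg (BH) adjusted p of 0.05 (limma), and 0 of 8 had an unadjusted p under 0.05, beside 3 of 12431 genes (0.0241%; 0.0161% higher and 0.00804% lower in STZ) and 322 genes (2.59%) over the whole table. Voom on recovered reads called 0 of the 8 as well. All 8 had a higher mean in the STZ group, as had 57.7% of all genes tested. Their median log2 fold change was 0.23, beside 0.03 over all genes tested. Without control 2 the median of the 8 was 0.10, and 7 were higher, beside 49.5% of all genes. Summed fibroblast markers, lower in every STZ heart than in every control, differed between the same groups, and their part was not tested. Separation of all 3 STZ from all 3 control values was seen for 1 of the 8, Prkar1a (STZ above), beside 8.54% of all genes tested (4.92% with STZ above and 3.62% with STZ below).

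**Figure D2:**
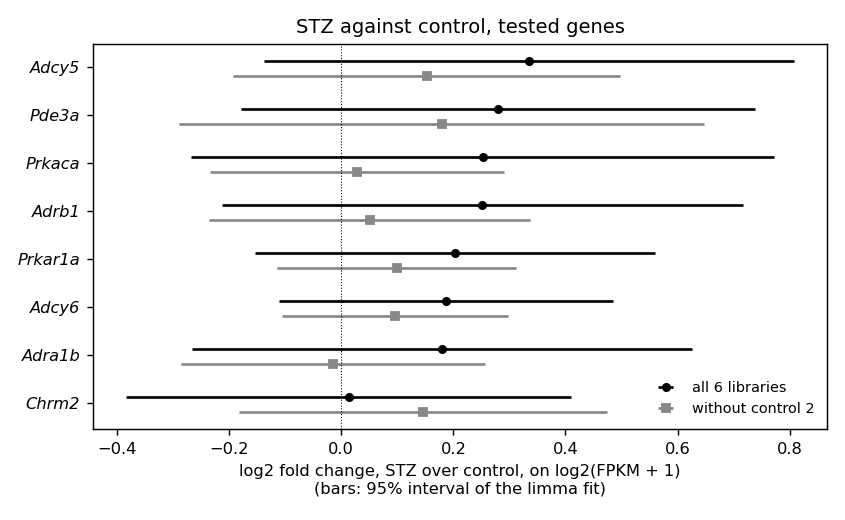
Log2 fold change (STZ over control) of the 8 tested genes, with the 95% interval of the limma fit, for all 6 libraries (black circles) and without control 2 (grey squares). Every interval contains 0, and leaving out control 2 moves 7 of the 8 estimates to the left and Chrm2 to the right.

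Adrb1 (ENSMUSG00000035283, GRCm38 chr19:56722372-56724862 as deposited, plus strand) encodes the beta1 receptor, the main adrenergic receptor of heart muscle. It was at 19.8, 11.7 and 17.0 FPKM in controls 1 to 3 and at 21.6, 17.9 and 17.9 FPKM in STZ 1 to 3. The groups overlapped, since control 1 lay above STZ 2 and STZ 3, and control 2 was the lowest. The group means were 16.2 ± 4.10 and 19.1 ± 2.15 FPKM (SD, n = 3 each), a log2 fold change of 0.25 (SE 0.195, 95% interval -0.21 to 0.72; limma, BH-adjusted p = 0.922). Permuting the 6 values (exact, two-sided) gave p = 0.4, where 3 against 3 samples cannot go below 0.1. Without control 2 the log2 fold change was 0.05. The 150 bases before the RefSeq start of Adrb1, shown because this gene and Chrm2 differed in opposite directions in control 2, lie at chr19:56721967-56722116 (GRCm38.p6, plus strand), hold 78.7% G or C and overlap no exon of GENCODE M21. Capitals mark a CCAAT box (read as ATTGG on this strand) and the CRE core.
Adrb1: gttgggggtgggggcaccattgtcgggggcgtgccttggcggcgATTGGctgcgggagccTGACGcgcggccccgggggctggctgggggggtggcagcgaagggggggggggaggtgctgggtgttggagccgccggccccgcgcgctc
A CCAAT box on either strand was found in 37.4% of all windows.

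Chrm2 (ENSMUSG00000045613, chr6:36388084-36528414, plus strand) encodes the M2 receptor, the muscarinic receptor of the heart. Its levels were 12.9, 17.9 and 13.7 FPKM in controls 1 to 3 and 12.99, 14.1 and 17.8 FPKM in STZ 1 to 3. Control 2 and STZ 3 were the high libraries, with nearly equal FPKM values (2312 and 1994 reads), and the groups overlapped. Atrial markers summed to 89.8 FPKM in STZ 3 and 6350.1 FPKM in control 2, and their part in the Chrm2 level was not tested. The log2 fold change was 0.01 (SE 0.167, 95% interval -0.38 to 0.41; limma, BH-adjusted p = 0.993; exact permutation p = 0.9), it was 0.15 without control 2, and it turned negative under 3 other scalings of the libraries. An antisense gene, 9330158H04Rik, overlaps an exon of Chrm2, at 0.429 to 1.65 FPKM, and with no stated strand setting reads of the shared part cannot be told apart. The 150 bases before the start of Chrm2, chr6:36387934-36388083 (plus strand), hold 51.3% G or C and overlap an exon of 9330158H04Rik. Capitals mark a GC box (GGGCGG, read as CCGCCC on this strand), found on either strand in 35.7% of all windows.
Chrm2: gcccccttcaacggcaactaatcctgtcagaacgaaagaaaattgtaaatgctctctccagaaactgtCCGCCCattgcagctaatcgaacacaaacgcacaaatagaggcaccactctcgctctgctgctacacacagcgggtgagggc
No CRE core was in this stretch.

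Adra1b (ENSMUSG00000050541, chr11:43774606-43901210, minus strand) encodes the alpha1B receptor. It was at 16.0, 9.86 and 14.6 FPKM in controls, and STZ hearts had 15.7, 13.3 and 16.5 FPKM. Controls 1 and 3 lay within the STZ range and control 2 below it. The log2 fold change was 0.18 (SE 0.187, 95% interval -0.27 to 0.62; limma, BH-adjusted p = 0.922) and turned to -0.01 without control 2.

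Adra1a (ENSMUSG00000045875, chr14:66635251-66771168, plus strand), which encodes the alpha1A receptor, was at 0.0817, 0.343 and 0.0916 FPKM in controls, and STZ hearts had 0.0902, 0.109 and 0.111 FPKM. These values are 12, 64 and 14 reads in controls 1 to 3 and 14, 16 and 18 reads in STZ 1 to 3. Control 2 was the one high library: the exact 95% Poisson interval of its read number was 49.3 to 81.7, and the highest upper bound among the others was 28.4, at STZ 3. These intervals cover counting error only. The difference of group means on log2(FPKM + 1) was -0.08 and turned to 0.02 without control 2 (exact permutation p = 0.9 with all 6 libraries). Adra1a thus stood 25.02-fold to 148-fold below Pde3a, the next gene in the order of levels.

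The cyclase genes had higher means in STZ hearts and kept that direction without any single library, as did Adrb1, Prkaca, Prkar1a and Pde3a. Adcy5 (ENSMUSG00000022840, chr16:35154877-35305738, plus strand), which encodes a calcium-inhibited cyclase of heart muscle, was at 32.6, 19.3 and 25.2 FPKM in controls, and STZ hearts had 35.8, 31.9 and 28.6 FPKM. Control 1 overlapped the STZ range, and controls 2 and 3 lay below it. Its log2 fold change of 0.34 (SE 0.199, 95% interval -0.14 to 0.81; limma, BH-adjusted p = 0.922) was the largest among the 8 tested genes, and 0.15 without control 2.

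Adcy6 (ENSMUSG00000022994, chr15:98589973-98610076, minus strand), the other calcium-inhibited cyclase of cardiomyocytes, was at 40.4, 31.6 and 36.6 FPKM in controls, and STZ hearts had 42.5, 40.0 and 41.1 FPKM. The overlap was small: only control 1 exceeded STZ 2. An antisense gene over an exon of Adcy6, Gm29331, was listed at 0 in all 6 libraries. Its log2 fold change was 0.19 (SE 0.125, 95% interval -0.11 to 0.49; limma, BH-adjusted p = 0.922) and 0.10 without control 2.

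The regulatory PKA subunit gene Prkar1a (ENSMUSG00000020612, chr11:109649405-109669656, plus strand) encodes RI alpha, which holds the kinase inactive until cyclic AMP binds. It was the gene of this set whose groups did not overlap, at 198, 159 and 196 FPKM in controls, and STZ hearts had 219, 215 and 201 FPKM. Control 1 and STZ 3 nevertheless differed by only a small margin, 198.3 against 200.6 FPKM. The means were 184 ± 22.3 and 211 ± 9.61 FPKM (SD, n = 3 each), a log2 fold change of 0.20 (SE 0.15, 95% interval -0.15 to 0.56; limma, BH-adjusted p = 0.922). The exact permutation p was 0.1, the smallest that this design can give. Without control 2 the log2 fold change was 0.10. Its total of 92464 reads over the 6 libraries makes it the most deeply counted of the 9 genes.

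The catalytic subunit gene Prkaca (ENSMUSG00000005469, chr8:83972993-83996443, plus strand) was at 203, 118 and 176 FPKM in controls, and STZ hearts had 207, 182 and 189 FPKM. Control 1 lay inside the STZ range, and control 2 was far below all other libraries. The log2 fold change was 0.25 (SE 0.219, 95% interval -0.27 to 0.77; limma, BH-adjusted p = 0.922) and 0.03 without control 2.

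Pde3a (ENSMUSG00000041741, chr6:141249269-141507448, plus strand) encodes a phosphodiesterase that is inhibited by cyclic GMP and acts near the sarcoplasmic reticulum. It was at 8.57, 8.58 and 13.6 FPKM in controls, and STZ hearts had 10.7, 13.2 and 13.4 FPKM. Its FPKM pattern differed from that of the other enzymes, because controls 1 and 2 were equally low (1838 and 2337 reads) and control 3 was the highest of all 6. The antisense gene Gm28523, which overlaps an exon of Pde3a, was at 0.18 to 0.645 FPKM, and the shared reads cannot be told apart. The log2 fold change was 0.28 (SE 0.193, 95% interval -0.18 to 0.74; limma, BH-adjusted p = 0.922), 0.18 without control 2 and 0.48 without control 3.

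**Figure D3:**
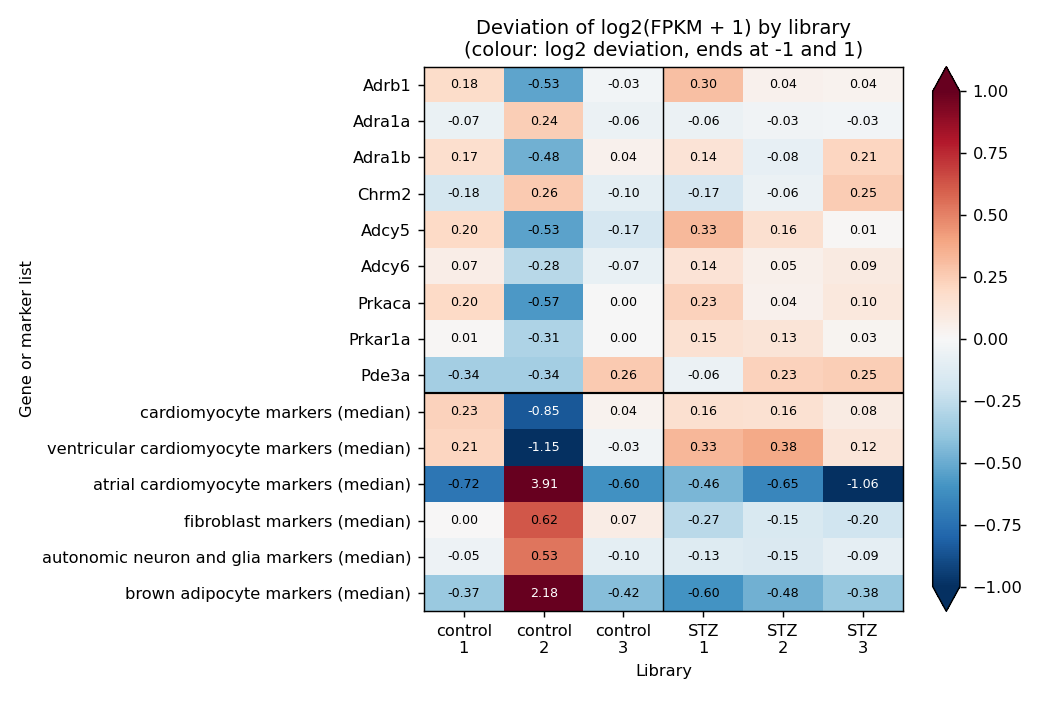
Deviation of log2(FPKM + 1) in each library from the mean of the 6 libraries, for the 9 genes (top) and as the median over 6 marker lists (bottom), with the value printed in each cell and colour limited to the range -1 to 1. In control 2, Adrb1, Adra1b, Adcy5 and Prkaca deviate by -0.53, -0.48, -0.53 and -0.57 and the cardiomyocyte markers by -0.85, whereas Chrm2 deviates by 0.26 and the atrial markers by 3.91.

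The genes also differed in how far control 2 departed. Over the 6 libraries the highest value exceeded the lowest by 1.84-fold for Adrb1, 1.86-fold for Adcy5, 1.76-fold for Prkaca and 1.68-fold for Adra1b, and by 1.27-fold, 1.42-fold, 1.18-fold and 1.24-fold over the 5 libraries without control 2. In deposited FPKM, Chrm2 and Pde3a had ranges that changed little without control 2, at 1.37-fold and 1.58-fold over the other 5. The library total set for control 2 exceeded its reads by a factor of 1.21, so all these ranges hold for the deposited scale.

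Within each library, 4 pairs of genes were compared as differences of log2(FPKM + 1). The added 1 weighs most on Adra1a, which was far below 1 FPKM. None differed beyond the spread (exact two-sided permutation p = 0.4 to 0.8, BH-adjusted over the 4 to 0.8). Adcy5 over Adcy6 was -0.30, -0.68 and -0.52 in the controls and -0.24, -0.32 and -0.51 in the STZ hearts, a difference of 0.15 that was 0.06 without control 2. Adrb1 over Chrm2, the balance of the main receptors of each nerve, was 0.58, -0.56 and 0.29 in the controls and 0.69, 0.32 and 0.01 in the STZ hearts. Control 2 was the library in which Chrm2 exceeded Adrb1, and the group difference of 0.24 turned to -0.10 without it. Prkaca over Prkar1a was 0.03, -0.42 and -0.16 in the controls and -0.08, -0.24 and -0.08 in the STZ hearts, and its difference of 0.05 turned to -0.07 without control 2. For Adra1a over Adra1b the difference of -0.26 turned to 0.04 there, and it was -0.48 with a pseudocount of 0.1.

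**Figure D4:**
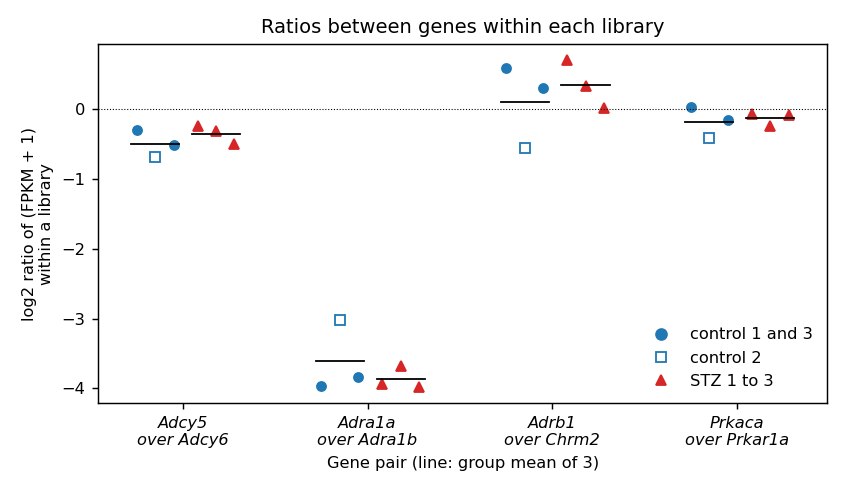
Log2 ratio of (FPKM + 1) between pairs of genes in each library, with group means as lines, for controls 1 and 3 (circles), control 2 (open square) and STZ hearts (triangles). Control 2 is the lowest library for Adcy5 over Adcy6, Adrb1 over Chrm2 and Prkaca over Prkar1a and the highest for Adra1a over Adra1b.

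Since cardiomyocyte markers moved with several of these genes, each gene was also expressed relative to the median of the 10 cardiomyocyte markers in the same library. In every library this median lay between Tnni3 and either Tnnc1 or Mb, so it rests on these genes. The markers did not fall equally in control 2: Tnni3 was at 671 FPKM against 819 to 955 elsewhere, and Pln at 108 against 367 to 530. On this log2 scale Adrb1 was at -5.83, -5.89 and -5.82 in the controls and at -5.74, -5.79 and -5.76 in the STZ hearts, so control 2 lay near the other controls and the groups did not overlap. The difference was 0.08 (exact two-sided permutation p = 0.1, the smallest possible, BH-adjusted over the 9 genes p = 0.45) and 0.06 without control 2. With a pseudocount of 5 the difference for Adrb1 was 0.036 (exact permutation p = 0.3), so the separation was lost. Adcy5 was at -5.14, -5.22 and -5.28 against -5.04, -4.99 and -5.11, also without overlap, a difference of 0.17 (exact permutation p = 0.1, adjusted p = 0.45) and 0.16 without control 2. The share of all tested genes that separate on this scale was not counted, so these separations have no background beside them. The direction for Adrb1 and Adcy5 turned with another reference. Relative to the median of 5 ventricular markers, the differences were -0.36 for Adrb1 and -0.28 for Adcy5. That median was Lrrc10 in every library, so this reference was that gene alone. Lrrc10 was at 60.3, 23.2 and 54.6 FPKM in controls and at 66.0, 74.3 and 57.7 FPKM in STZ hearts. These differences are given with control 2 only, where Lrrc10 was lowest. Chrm2 remained spread out, at -6.42, -5.33 and -6.11 in the controls and -6.43, -6.11 and -5.77 in the STZ hearts. The other 6 genes overlapped between groups, with exact permutation p between 0.2 and 1.

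Genes most like Adrb1 and Chrm2 across the 6 libraries were sought among the 6742 other tested genes at a mean of 5 FPKM or more with a standard gene name. By Pearson correlation of log2(FPKM + 1), the 3 nearest to Adrb1 were Grb14 (r = 0.999), Ppa2 (0.998) and Asrgl1 (0.998), and 281 genes had r above 0.95. Grb14, for example, was at 13.5, 9.36 and 12.2 FPKM in controls, and STZ hearts had 14.4, 12.6 and 12.8 FPKM, again lowest in control 2. The 3 nearest to Chrm2 were Cant1 (r = 0.983), Sirpa (0.971) and Ppp1r18 (0.971), and 8 genes had r above 0.95. Cant1 shared the high values of control 2 and STZ 3, at 10.3 and 9.67 FPKM against 8.05 to 8.55 FPKM in the other 4 libraries. These values are descriptions over 6 libraries that include control 2.

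The other genes of the pathway were taken from 14 lists with 143 genes, of which 105 passed the filter. None of the 105 passed the limma threshold, beside 0.0241% of all genes tested. Of the 105, 1, Grk3, had an unadjusted p under 0.05 (limma), beside 2.59% of all genes tested. By direction, 66 were higher and 39 lower in the STZ group, with a median of 0.06. Over all genes tested 57.7% were higher, with a median of 0.03. Without control 2, 57 of 104 were higher with a median of 0.01, beside 49.5% and a median of -0.0014 over all genes. With library totals recovered from the reads the median was 0.00037, beside -0.026 over all genes tested. With median-ratio size factors it was 0.029, beside 0.0011 over all genes tested. Groups did not overlap for 10 of the 105, a share near the 8.54% over all genes tested. STZ was above for 3 and below for 7 of the 105, beside 4.92% and 3.62% of all genes tested. The 7 include Kcnj3, which passed the filter through the 3 controls alone, so for that gene the filter favoured a lower STZ value. The part of the filter in the split of 3 and 7 was not tested.

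Among receptors, Adra1d, the third alpha1 receptor, was the sole other adrenergic receptor past the filter, at a mean of 2.61 FPKM over the 6 libraries and a log2 fold change of 0.01, and 0.19 without control 2. Adrb3, the receptor of brown fat, was at 0.471 FPKM in control 2 and 0 to 0.0704 FPKM elsewhere. No other muscarinic receptor passed, Chrm3 being the highest at a mean of 0.293 FPKM.

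Of the G protein subunits, 8 of 15 tested were higher and 7 lower, with a median of 0.02. Without control 2, 7 of 15 were higher and the median turned to -0.014. Gnai2, an inhibitory alpha subunit, was the most abundant at 113 FPKM. The lowest p belonged to Gng2 (log2 fold change -0.37, SE 0.246, and -0.083 without control 2), with 10.9 FPKM in control 2 and 4.93 to 6.18 FPKM elsewhere, and Gnaq, the alpha subunit that couples alpha1 receptors (0.14, SE 0.109; 0.086 without control 2). Other cyclases were lower in level than Adcy5 and Adcy6, the highest being Adcy4 at a mean of 4.32 FPKM. Among them 2 of 4 tested were higher with and without control 2 (medians 0.014 without it and 0.04 with it), and those with the lowest p were Adcy3 (log2 fold change -0.29, SE 0.175, but -0.15 without control 2) and Adcy9 (0.39, SE 0.278, but 0.06 without control 2).

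Among other PKA subunits and inhibitors, 4 of 6 tested were higher, with a median of 0.07. Without control 2, 2 of 6 were higher and the median turned to -0.039. Pkig, a PKA inhibitor, was the most abundant at 34.7 FPKM with a log2 fold change of 0.20 (SE 0.155), and 0.095 without control 2. Prkar2b, a type II regulatory subunit, was at 2.26, 18.6 and 2.39 FPKM in controls, and STZ hearts had 2.20, 1.94 and 2.13 FPKM. The high level of Prkar2b was thus confined to control 2, and the value of -0.96 (log2 fold change) was -0.11 when that library was left out. The source of this high level was not tested. Kcnj3, a potassium channel subunit opened by M2 signalling and one of the atrial markers, had the same shape, at 1.39, 16.2 and 1.34 against 0.981, 0.867 and 0.817 FPKM. Kcnj3 passed the filter of 1 FPKM through the controls alone, which favours a lower STZ value, and without control 2 it was not tested. Its partner Kcnj5 was the most abundant gene of the muscarinic effector list at 29.3 FPKM, and 1 of the 3 tested genes of that list, Bche (0.40, SE 0.258; 0.08 without control 2), was higher. Without control 2 the 2 genes of this list that could be tested were both higher, Kcnj5 turned from -0.10 to 0.18, and the median turned from -0.10 to 0.13.

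Phosphodiesterases went in both directions, with 7 of 11 tested higher and a median of 0.05. Without control 2, 4 of 11 were higher and the median turned to -0.012. Pde1a was at 2.88, 3.92 and 3.25 FPKM in controls, and STZ hearts had 1.89, 2.65 and 2.73 FPKM, without overlap (log2 fold change -0.35, SE 0.15, -0.26 without control 2; limma, BH-adjusted p = 0.922). Pde5a, which breaks down cyclic GMP, had a log2 fold change of -0.36 (SE 0.167), with overlapping groups. Pde4b was the most abundant of them at 8.30 FPKM, below the 11.3 FPKM of Pde3a.

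Among receptor kinases, arrestins and RGS proteins, 5 of 13 tested were higher, with a median of -0.03. Without control 2, 8 of 13 were higher and the median turned to 0.024. Grk3, a kinase that desensitises activated receptors, was at 5.78, 4.84 and 6.64 FPKM in controls, and STZ hearts had 8.25, 8.01 and 7.89 FPKM. All STZ values lay above all controls by more than 1 FPKM. The log2 fold change was 0.43 (SE 0.122, 95% interval 0.14 to 0.72), with an unadjusted p of 0.00974 that did not pass adjustment (limma, BH-adjusted p = 0.922), and it was 0.33 without control 2. Rgs6, which ends M2 signalling in the heart, was at a mean of 2.07 ± 0.823 and 1.31 ± 0.187 FPKM (SD, n = 3 each; log2 fold change -0.38, SE 0.203), and -0.17 without control 2. Rgs5, a pericyte gene, was the most abundant at 101 FPKM.

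All 11 tested A-kinase anchoring proteins were higher in STZ hearts, with a median of 0.11, and without control 2, 9 of 11 were higher with a median of 0.02. Ezr was the most abundant at 55.6 FPKM, and those with the lowest p were Akap13 (log2 fold change 0.23, SE 0.133; 0.12 without control 2) and Akap1 (0.32, SE 0.203; 0.10 without control 2). Other cyclic AMP effectors were higher in 7 of 8 cases, with a median of 0.10. Leaving out control 2 gave 5 of 8 and a median of 0.01. Popdc2, which encodes a cyclic AMP binding membrane protein, was at 240 FPKM, and its relatives Popdc3 (0.53, SE 0.264) and Bves (0.54, SE 0.312) moved to 0.22 and 0.16 without control 2.

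PKA substrates of excitation-contraction coupling had the highest median, 0.28, with 7 of 10 tested higher, and without control 2 it was 0.0038 with 5 of 10 higher. Pln, Ryr2 and Tnni3 of this list are also among the 10 cardiomyocyte markers, all lowest in control 2. Tnni3, cardiac troponin I, was the most abundant at 853 FPKM. Mybpc3, a thick filament protein, was at 728, 289 and 721 FPKM in controls, and STZ hearts had 817, 788 and 814 FPKM, without overlap (log2 fold change 0.60, SE 0.372, 0.15 without control 2). Cacna1c, the pore of the L-type calcium channel, had a log2 fold change of 0.56 (SE 0.305), and 0.20 without control 2. Phosphatases that oppose PKA were higher in 5 of 8 cases with a median of 0.07, and in 3 of 8 with a median of -0.042 once control 2 was left out. Ppp1ca led in level at 233 FPKM. The lowest p belonged to Ppp2ca (0.13, SE 0.135; 0.019 without control 2) and Ppp1cc (0.10, SE 0.116; 0.034 without control 2).

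Effectors of alpha1 receptors were higher in 6 of 9 cases, with a median of 0.06, and also in 6 of 9 without control 2, with a median of 0.025. Prkca, a protein kinase C, was at a mean of 3.96 ± 1.09 and 5.92 ± 1.34 FPKM (SD, n = 3 each; log2 fold change 0.49, SE 0.215; 0.29 without control 2), with overlapping groups, and Prkce had a log2 fold change of 0.23 (SE 0.216) that turned to -0.0074 without control 2. Plcb4, a phospholipase C, was the most abundant at 8.59 FPKM. Catecholamine handling genes were higher in 2 of 6 cases, with a median of -0.14, and in 3 of 6 without control 2, with a median of -0.034. Slc18a2, the vesicular monoamine transporter of nerve endings, was at 1.33, 1.71 and 1.29 FPKM in controls, and STZ hearts had 1.15, 0.704 and 1.09 FPKM, without overlap (log2 fold change -0.30, SE 0.149, and -0.23 without control 2). Th, the enzyme that starts catecholamine synthesis, was at 0.475 FPKM in control 2 and listed at 0 in the other 5 libraries.

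**Figure D5:**
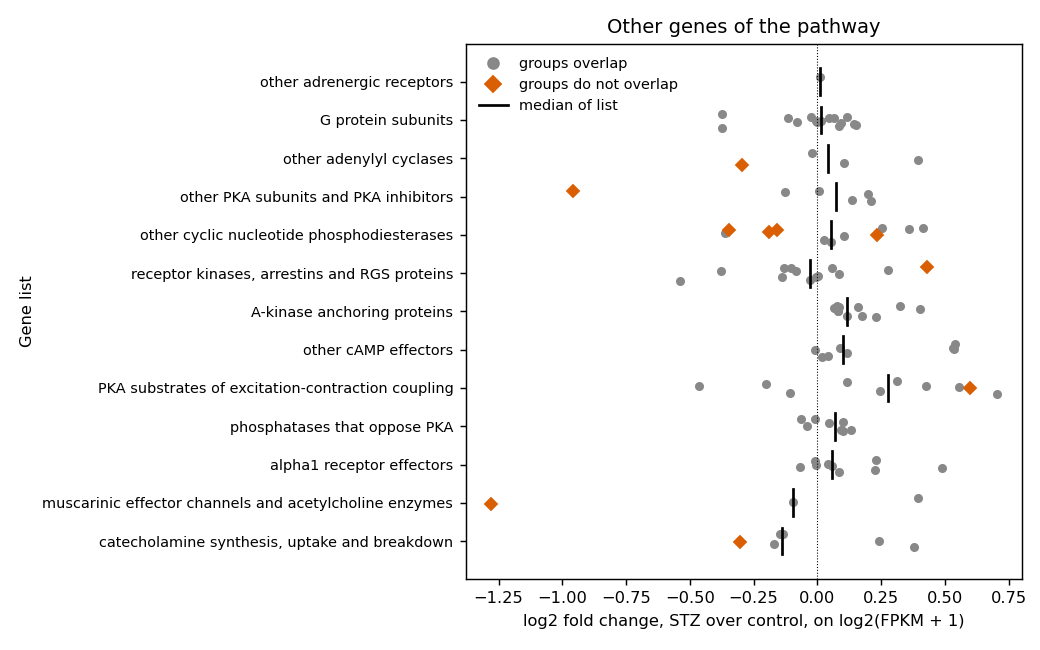
Log2 fold change (STZ over control) of the 105 tested genes of the other pathway lists, 1 point per gene, with the list median as a line and the 10 genes whose groups do not overlap as diamonds. The list without a tested gene, other muscarinic receptors, is not drawn, and the medians run from -0.14 for catecholamine handling to 0.28 for PKA substrates.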

How the data were processed

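Heart RNA of 6 mice was analysed. Per the labels' protocols, RNA was purified with a column kit and libraries were made with a SMARTER kit. The deposited values were taken as FPKM because of the table's name and its values, as the authors' header states no unit. Per the submitters' processing notes the build was GRCm38 (mm10). Aligner, counter and strandedness: not given in the sources used here. Value times deposited gene length gave whole reads within 0.01 for 100% of values above 0. The library total implied by the authors' values exceeded the reads of control 2 by a factor of 1.21 (other libraries 0.985 to 1.03), so levels of control 2 are lower than its reads alone would give. The gene length in the same table is in bases, as deposited by the authors. It matched the exon union of GENCODE M21 for the 9 members except Adrb1, and was not compared for the other genes named.

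Group was the only term of the fit (limma 3.58.1, R 4.3.3, mean-variance trend, pseudocount 1, filter of 1 FPKM in 3 samples, two-sided, BH over 12431 genes). The fit was tested on simulated counts with the same spread setting for every gene and no library that stood apart like control 2. Its behaviour with such a library was not tested. A fold change on log2(FPKM + 1) understates that of low genes. Single values had an exact permutation test over 20 assignments. Every pair of libraries differed by more than sampling noise (chi-square per degree of freedom at least 12.5). The members, lists and tests were chosen with earlier results of these data known. Named were all 9 members, the 2 tested genes of lowest p and the most abundant gene of each list, and the 3 genes nearest to Adrb1 and to Chrm2. Adrb3 and Th were added after their values were seen. A result that this rule would name for the catecholamine list is not reported here. Promoters came from RefSeq (GRCm38.p6) and figures from matplotlib 3.10.9.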

Additional observations from a re-analysis of the deposited data

How the results depend on the processing

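Limits: 3 samples per group, and 138 reads in all for Adra1a. All 8 tested genes stayed short of the threshold under every alternative, at a lowest BH-adjusted limma p of 0.689 (without control 3). Adcy5, Adcy6, Adrb1, Prkaca, Prkar1a and Pde3a kept their sign in these fits, but with array weights Adrb1 was 0.023, Prkaca 0.0071, Adcy5 0.13, Adcy6 0.078 and Prkar1a 0.12, each over 1.5 times smaller. Over fits without 1 library the log2 fold change ran from -0.014 to 0.31 for Adra1b, from -0.11 to 0.15 for Chrm2, and the difference from -0.13 to 0.022 for Adra1a. Adra1b was -0.053 with array weights. Chrm2 was -0.052 with recovered library totals, -0.022 with median-ratio size factors and -0.014 with quantile normalization. Adra1d was -0.0018 with a pseudocount of 5, -0.046 with recovered totals, -0.020 with median-ratio factors and -0.0031 with voom, and ran from -0.14 to 0.19 without 1 library. Prkce ran from -0.0074 to 0.40. The cause of these turns was not tested.

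Without 1 library, ratios ran from -0.44 to 0.036 (Adra1a over Adra1b), from -0.10 to 0.48 (Adrb1 over Chrm2) and from -0.070 to 0.16 (Prkaca over Prkar1a). Relative to cardiomyocyte markers the differences ran from -0.45 to 0.034 for Adra1a, from -0.10 to 0.069 for Adra1b, from -0.39 to 0.16 for Chrm2, from -0.046 to 0.11 for Adcy6, from -0.056 to 0.11 for Prkar1a and from -0.14 to 0.29 for Pde3a. Also relative to cardiomyocyte markers, the difference for Adra1b was -0.029 with a pseudocount of 5. With ventricular markers instead, the differences were -0.36 for Adrb1, -0.43 for Adra1b, -0.28 for Adcy5 and -0.43 for Adcy6. They were -0.36 for Prkaca, -0.41 for Prkar1a and -0.33 for Pde3a. The median of the ventricular markers was Lrrc10 in every library.

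Over all genes, 2 passed as higher and 1 as lower. The higher count was 1 with a pseudocount of 0.1, with no filter, with a mean of 5 FPKM and with voom. The lower count was 2 with quantile normalization and 6 with array weights. Without 1 library the counts ran from 1 to 2 higher and from 1 to 3 lower. With the replicate number as a block 0 passed in either direction (373 at an unadjusted p under 0.05), and the lowest adjusted p among the 8 genes was 0.935. Same-numbered libraries had correlations of deviations of 0.02, -0.04 and 0.09, and not every library correlated best with its own number, so the numbers were not taken as pairs.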
